A study of Ceratopteris richardii with 6 samples.

Results

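The gene models described here carry IDs beginning BGI_novel in the deposited expression table of callus from the fern Ceratopteris richardii, and were chosen by their mean level over the 6 libraries, which had to reach 20 FPKM (fragments per kilobase of transcript, relative to all mapped fragments in a library). This limit was met by 188 of the 1571 models with such IDs, in a table of 30001 genes. None of the 1571 IDs is a locus tag of the C.richardii_v2 assembly table, whereas the other 28430 IDs in the table all are. They are called added models here. RNA was sequenced from 3 libraries of proliferating callus (titles beginning BA) and 3 of differentiating callus (titles beginning MS), and the study asked which genes change in the passage between these states. The labels give no strain, culture medium or age for either group, so a difference in culture conditions and the difference in state cannot be told apart.

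Callus is a mass of dividing, little-organised plant cells kept in culture, and new shoots or plantlets can form from it. A reference annotation lists the genes known when a genome was annotated, and reads that align outside those genes can be assembled into further models. Such models may stand for protein-coding genes the annotation missed, long noncoding RNAs, copies of mobile elements, or ends of listed genes. Which of these an added model is was not given, and no names, sequences or positions came with the IDs, so no role is given to any of them.

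Libraries did not sort fully by group, and this touches each comparison below. Over 22371 tested genes (mean level of 1 FPKM or more), log2(FPKM + 1) correlated best between proliferating 1 and differentiating 3, at 0.981, against a mean of 0.956 within groups. Across the 188 added models the same pair again stood highest, at 0.935, while differentiating 3 had 0.517 with differentiating 2. The nearest library to proliferating 2 over the added models was differentiating 2, at 0.811. Correlations over the added models averaged 0.729 within groups and 0.710 between them, with genes, which are no independent replicates, as the points. Summed FPKM ran from 953954 to 1027755 per library, and the number of reads behind them is unknown. The callus label was not checked against marker genes here, since neither the file nor the assembly table used here pairs an ID with a gene name or description.

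The most abundant added model, BGI_novel_G000541, had 1136, 891 and 1173 FPKM in proliferating 1 to 3 and 733, 1805 and 1122 FPKM in differentiating 1 to 3. Its highest and lowest values thus both came from differentiating callus, and the groups overlapped. It ranked 66 by mean FPKM among all genes in the table. BGI_novel_G001316 followed with 665, 916 and 1147 FPKM in the proliferating and 635, 660 and 792 FPKM in the differentiating libraries. BGI_novel_G000181 had 490, 423 and 469 FPKM in proliferating and 376, 234 and 457 FPKM in differentiating callus, with differentiating 2 well under the other libraries. None of these 3 models differed between the groups in limma, a linear model test fitted across all genes (adjusted p 0.908, 0.525 and 0.497).

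Abundance was concentrated in few models. The 29 models at 100 FPKM or more held 54.9% of the FPKM summed over all 188, and the 64 models at 20 to 30 FPKM held 11.1%. The median model averaged 37.3 FPKM, and 19 of the 188 were among the 1000 most abundant genes of the table. As these values were the ones that chose the models, they are given as a description only. At the limit itself, BGI_novel_G000723 and BGI_novel_G000277 averaged 20.2 and 20.3 FPKM and were kept, and BGI_novel_G001004 and BGI_novel_G000687 averaged 19.9 and 19.8 FPKM and were not.

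**Figure D1:**
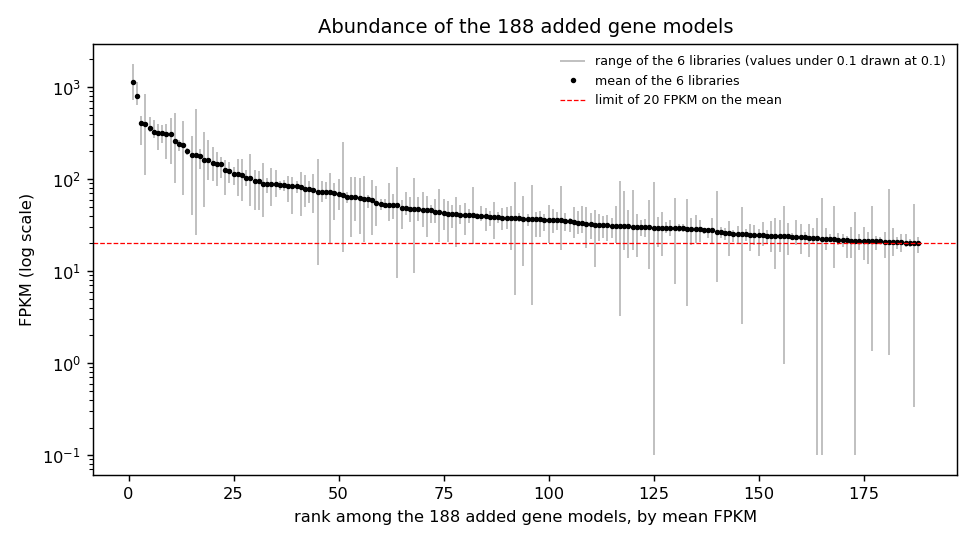
Mean FPKM of the 188 added models (points, log axis) by rank, with a grey line from the lowest to the highest of the 6 libraries. Means run from 20.2 to 1143 FPKM, and in a few models at the lower ranks the line reaches under 1 FPKM.

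High mean abundance did not always stand for abundance in every library. Of the 188 models, 122 had at least 20 FPKM in all 6 libraries. A mean of at least 20 FPKM was reached in both groups by 165 models, in proliferating callus only by 10 and in differentiating callus only by 13. For 19 models the mean of the other 5 libraries was under 20 FPKM once the highest library was set aside. These 19 met the limit only with that library counted, and they include models that were steady but close to it, such as BGI_novel_G000723 with 15.6 to 23.7 FPKM. Where 1 library was far above the rest, a difference among libraries is built into the choice of the model.

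Together the 188 models took 1.57%, 1.35% and 1.64% of summed FPKM in proliferating 1 to 3, and 1.27%, 1.24% and 1.505% in differentiating 1 to 3. The group means were 1.52% ± 0.151 in proliferating and 1.34% ± 0.147 in differentiating callus (mean ± SD, n = 3). The difference of 0.186 percentage points was little more than the spread within either group. Differentiating 3 lay within the range of the proliferating libraries, and proliferating 2 was the lowest of its own group. The median model stood at 40.6, 37.2 and 40.2 FPKM in the proliferating and at 33.4, 30.5 and 38.2 FPKM in the differentiating libraries.

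No added model passed the test between the groups. With limma on log2(FPKM + 1), 0 of the 188 models combined a Benjamini-Hochberg adjusted p below 0.05 with a log2 difference of 1 or more in size, where 0% of all 22371 tested genes did. The smallest adjusted p among the models was 0.306. Without adjustment, limma gave a p under 0.05 for 29 models, 15.4% of the 188. This share was 12.7% over all tested genes and 16.2% over other genes averaging 20 FPKM or more. Of the 29 models, 7 were higher and 22 lower in differentiating callus, 3.72% and 11.7% of the 188. The same shares were 5.53% and 7.18% over all tested genes, and 6.90% and 9.25% over the other genes. Without differentiating 3, limma called 5 models, all lower, while 1.51% of all tested genes were called. In that fit 77 of the 188 models had an unadjusted limma p under 0.05, beside 20.5% of all tested genes. This count of models was 18 of the 188 each without proliferating 3, differentiating 1 and differentiating 2. The shares of all tested genes were then 7.09%, 5.81% and 7.38%. In bulk tissue, fewer cells of a type and less RNA per cell cannot be told apart.

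In size the differences leaned to the lower side. The log2 difference, differentiating minus proliferating, was below 0 in 119 models and above 0 in 69, with a median of -0.10 beside -0.0011 over all tested genes. It was 1 or more in 8 models, 4.26% of them beside 2.01% of all tested genes, and -1 or less in 19 models, 10.1% beside 1.47%. Added models averaging 1 to 20 FPKM had 7.71% at 1 or more and 3.08% at -1 or less, with 50.3% below 0. Other genes averaging 20 FPKM or more had 1.51% and 1.54%, with 51.3% below 0. Among the 29 models at 100 FPKM or more, 6 were at least 2-fold lower and 1 at least 2-fold higher. The counts lower and higher were 6 and 4 of the 64 models at 20 to 30 FPKM. They were 4 and 1 of 60 at 30 to 50 FPKM, and 3 and 2 of 35 at 50 to 100 FPKM. Shares of all tested genes at these levels were not computed, so no trend with abundance is read from the counts. No test over the list was made, and the same 6 libraries underlie every model, so these shares are a description. Without differentiating 2 the median was -0.07 and 110 models lay below 0, and without differentiating 3 these values were -0.21 and 121.

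**Figure D2:**
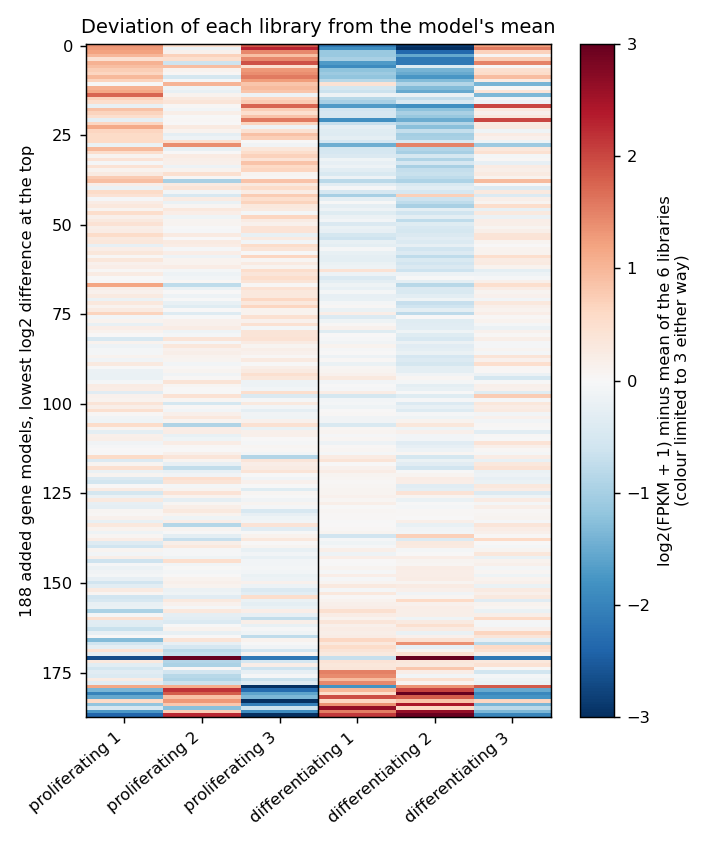
Colour shows log2(FPKM + 1) of each library minus the mean of the 6 libraries, for the 188 added models (rows, lowest log2 difference at the top) in 3 proliferating and 3 differentiating libraries (columns, parted by a line). Blue at the top lies mostly in differentiating 1 and 2 and not in differentiating 3, and the strongest red at the bottom lies in proliferating 2 and differentiating 1 and 2.

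Models whose groups did not overlap numbered 9 with all differentiating libraries above, 4.79% of the 188 beside 7.83% of all tested genes, and 16 with all of them below, 8.51% beside 9.28%. These shares are not above those of all tested genes. The 9 models above had log2 differences of 0.13 to 0.90, so that none reached 2-fold on this scale. The 16 below had log2 differences of -1.72 to -0.09, and 4 of them were at least 2-fold lower. These 4 are 2.13% of the 188, beside 0.577% of all tested genes and 1.95% of added models averaging 1 to 20 FPKM. For at least 2-fold higher with groups apart, the shares were 0%, 0.769% and 0.719%.

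BGI_novel_G000673 had the largest lower difference among models with groups apart. It stood at 117, 95.0 and 112 FPKM in proliferating 1 to 3 and at 26.8, 19.7 and 61.6 FPKM in differentiating 1 to 3. Every differentiating library was under every proliferating one, and differentiating 3 was the nearest to them. Its means were 108 ± 11.6 and 36.0 ± 22.4 FPKM (mean ± SD, n = 3), a 3.00-fold lower level, with a log2 difference of -1.72 (SE 0.38; limma adjusted p 0.306). Without differentiating 3 the log2 difference was -2.18 with a limma adjusted p of 0.0346, in a range of 0.0069 to 0.794 over 15 alternatives. The low end came from the fit without proliferating 2 and differentiating 3, which was chosen after seeing the data.

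BGI_novel_G000979 had 291, 293 and 214 FPKM in the proliferating and 41.0, 116 and 152 FPKM in the differentiating libraries. Its means of 266 ± 45.0 and 103 ± 56.7 FPKM differed 2.58-fold, with a log2 difference of -1.54 (SE 0.45; limma adjusted p 0.316). Here differentiating 1 was the lowest library, and without it the log2 difference was -0.98. The model with the next ID number, BGI_novel_G000980, had 167, 127 and 162 FPKM in proliferating and 58.0, 61.3 and 97.8 FPKM in differentiating callus. Its groups were also apart, with a log2 difference of -1.09 (SE 0.22). It had the smallest unadjusted limma p of the 188, at 0.00174, and an adjusted p of 0.306. Without differentiating 3 its log2 difference was -1.33 with a limma adjusted p of 0.0383. The fourth model at least 2-fold lower with groups apart, BGI_novel_G001717, had 31.9, 28.8 and 38.0 FPKM against 10.5, 15.6 and 19.8 FPKM, a log2 difference of -1.09. That became -1.28 with a limma adjusted p of 0.0437 without differentiating 3. Without differentiating 1 the log2 differences of BGI_novel_G000980 and BGI_novel_G001717 were -0.95 and -0.85, under 2-fold. Both are named after their values were seen.

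In the other direction, BGI_novel_G001652 had 21.2, 16.8 and 20 FPKM in the proliferating and 74.1, 28.6 and 23.4 FPKM in the differentiating libraries. All differentiating values were higher, but most of the difference came from differentiating 1. Its means were 19.3 ± 2.26 and 42.0 ± 27.9 FPKM, a 2.18-fold higher level. Its log2 difference of 0.90 (SE 0.40; limma adjusted p 0.402) became 0.41 without differentiating 1. BGI_novel_G000469 had 71.7, 46.3 and 104 FPKM in proliferating and 114, 112 and 122 FPKM in differentiating callus. Its differentiating libraries lay close together, at 116 ± 5.41 FPKM, and its proliferating ones did not, at 74.1 ± 29.1 FPKM. The log2 difference was 0.71 (SE 0.27; limma adjusted p 0.368), and became 0.42 without proliferating 2.

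**Figure D3:**
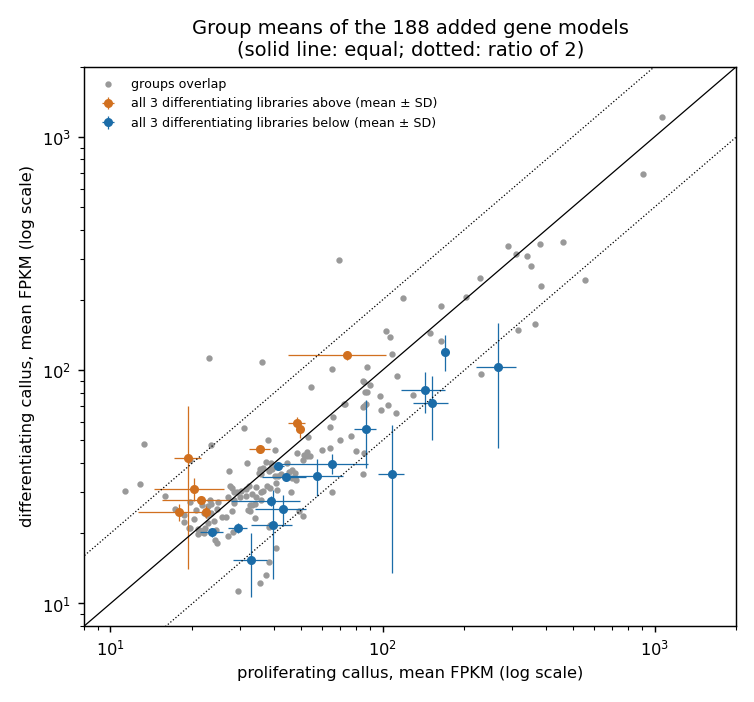
Mean FPKM of each added model in proliferating (horizontal) and differentiating callus (vertical), both on log axes, with SD bars over 3 libraries for the 25 models whose groups did not overlap. The 16 blue models lie under the line of equal levels and 4 of them past the dotted line for a ratio of 2, with BGI_novel_G000979 and BGI_novel_G000673 among these. Of the orange models, above the line of equal levels, BGI_novel_G001652 lies past the other dotted line, at a ratio of 2.18.

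The largest differences of all had overlapping groups. BGI_novel_G000269 stood at 35.8, 19.8 and 51.1 FPKM in proliferating 1 to 3, and at 2.33, 0.98 and 33.5 FPKM in differentiating 1 to 3. Differentiating 1 and 2 were nearly without it, while differentiating 3 lay inside the proliferating range. Its log2 difference was -2.48 (SE 1.01; limma adjusted p 0.384), and it was -3.73 with an adjusted p of 0.0383 without differentiating 3, in a range of 0.00588 to 0.794 over 15 alternatives. Again the low end came from the fit without proliferating 2 and differentiating 3, chosen after seeing the data. BGI_novel_G000277 had much the same order of libraries, with 26.0, 8.81 and 53.2 FPKM in proliferating and 2.11, 0.33 and 31.5 FPKM in differentiating callus. Its log2 difference was -2.25 (SE 1.18; limma adjusted p 0.463) and became -1.27 without differentiating 2 and -3.58 without differentiating 3.

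The largest higher differences were those of BGI_novel_G000026 and BGI_novel_G001442. In BGI_novel_G000026 the values were 0.55, 37.9 and 0 FPKM in proliferating 1 to 3, and 34.1, 62.2 and 1.10 FPKM in differentiating 1 to 3. It was thus at 34 FPKM or more in proliferating 2, differentiating 1 and differentiating 2, and close to 0 in the other 3 libraries, so each group held both states. The log2 difference was 2.09 (SE 1.71; limma adjusted p 0.631), and it was 1.10 without proliferating 3 and 3.75 without proliferating 2. BGI_novel_G001442 had 27.5, 155 and 24.8 FPKM in the proliferating and 268, 582 and 35.8 FPKM in the differentiating libraries. Its log2 difference of 1.88 (SE 1.10; limma adjusted p 0.504) became 1.03 without differentiating 2 and 3.03 without differentiating 3.

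Leaving out 1 library in turn separated the 27 models that differed at least 2-fold. Of the 19 lower ones, 5 stayed at a log2 difference of -1 or less in all 6 such fits, and none of the 19 changed sign in any of the 6. Of the 8 higher ones, 2 stayed at 1 or more in all 6 fits, and 2 changed sign in a fit. For 23 of the 27 models, differentiating 3 was the differentiating library nearest to the proliferating mean. For 20 of them proliferating 2 was the proliferating library nearest to the differentiating mean. These 2 counts were not made over all tested genes, so they are not shown to be particular to these models. All 8 higher models, but 7 of the 19 lower ones, had a highest library at least 10 times the lowest. Groups were apart in 0 of the 8 and in 4 of the 19. Over all tested genes they were apart in 172 of the 449 at least 2-fold higher. Of the 329 tested genes at least 2-fold lower, they were apart in 129.

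On or off patterns, taken as under 1 FPKM in at least 1 library, were found in 6 of the 188 models. This is 3.19% of them, beside 0.166% of the 8420 other genes averaging 20 FPKM or more. Among the 973 added models averaging 1 to 20 FPKM, whose lower level lies nearer to 1 FPKM, the share was 39.3%. The mean chosen as the limit makes such a model high in another library, and no difference between these shares was tested. An FPKM of 0 means only that the model was listed at 0, since the depth is unknown. Low values fell in 4 models in proliferating 3, in 2 each in proliferating 1 and differentiating 2, in 1 in differentiating 3 and in none in proliferating 2 and differentiating 1.

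A single low library was seen in BGI_novel_G000161. It was listed at 0 in proliferating 3 and had 23.4 and 38.2 FPKM in proliferating 1 and 2, and 23.7, 27.9 and 24.0 FPKM in differentiating 1 to 3. Its log2 difference of 1.41 rested on that library and was -0.25 without proliferating 3. BGI_novel_G001770 was also listed at 0 in proliferating 3, with 26.5 and 25.4 FPKM in proliferating 1 and 2. In differentiating callus it had 2.55 FPKM in differentiating 1, and 30.5 and 43.5 FPKM in differentiating 2 and 3. So it was low in 1 library of each group. BGI_novel_G000269 and BGI_novel_G000277, described above, were under 1 FPKM in differentiating 2 only.

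BGI_novel_G001687 gave the clearest case of a model present in part of the libraries. Its level was 82.0 FPKM in proliferating 2 and 92.7 FPKM in differentiating 2. In the other libraries it was listed at 0 in proliferating 1, and had 0.43 FPKM in proliferating 3, 2.88 in differentiating 1 and 0.42 in differentiating 3. Both high libraries carry the replicate number 2 in the labels, and each is the only high library of its group. The group means of 27.5 ± 47.2 and 32.0 ± 52.6 FPKM therefore describe no library, and the log2 difference was 0.71 (SE 2.08; limma adjusted p 0.905).

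A single library held over 50% of the FPKM summed over 6 libraries in 5 models, 2.66% of the 188 beside 0.344% of other genes averaging 20 FPKM or more and 9.15% of the added models at 1 to 20 FPKM. The highest such share was in BGI_novel_G000484, which had 253 FPKM in differentiating 1 and 62.0 FPKM in differentiating 2. Its other values were 27.9, 16.3 and 25.1 FPKM in proliferating 1 to 3 and 22.3 FPKM in differentiating 3. Differentiating 1 held 62.2% of the sum, and the log2 difference of 1.61 became 0.70 without that library. In BGI_novel_G000054 differentiating 2 took 62.1% of the sum, at 77.9 FPKM. Proliferating 2 had 30.8 FPKM of it and differentiating 1 had 12.2 FPKM, against 1.24 to 2.01 FPKM in the other 3 libraries. BGI_novel_G001442 had 53.3% of its sum in differentiating 2.

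Over a wider cut, 18 models (9.57%) had a highest library at least 10 times the lowest. This share was 1.09% among other genes at 20 FPKM or more and 22.9% among added models at 1 to 20 FPKM, and no difference between them was tested. The lowest value of these 18 was in differentiating 2 in 7 models and in proliferating 3 in 6. The highest value was in proliferating 3 in 6 models, in differentiating 2 in 5, and in proliferating 1 in none. Proliferating 3 and differentiating 2 thus held most of both extremes. Among other genes at 20 FPKM or more, proliferating 3 held 23.5% of the highest and 21.7% of the lowest values. For differentiating 2 these shares were 22.2% and 25.8%. No model of the 18 was under 5 FPKM in proliferating 2, while 7 were in proliferating 3.

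**Figure D4:**
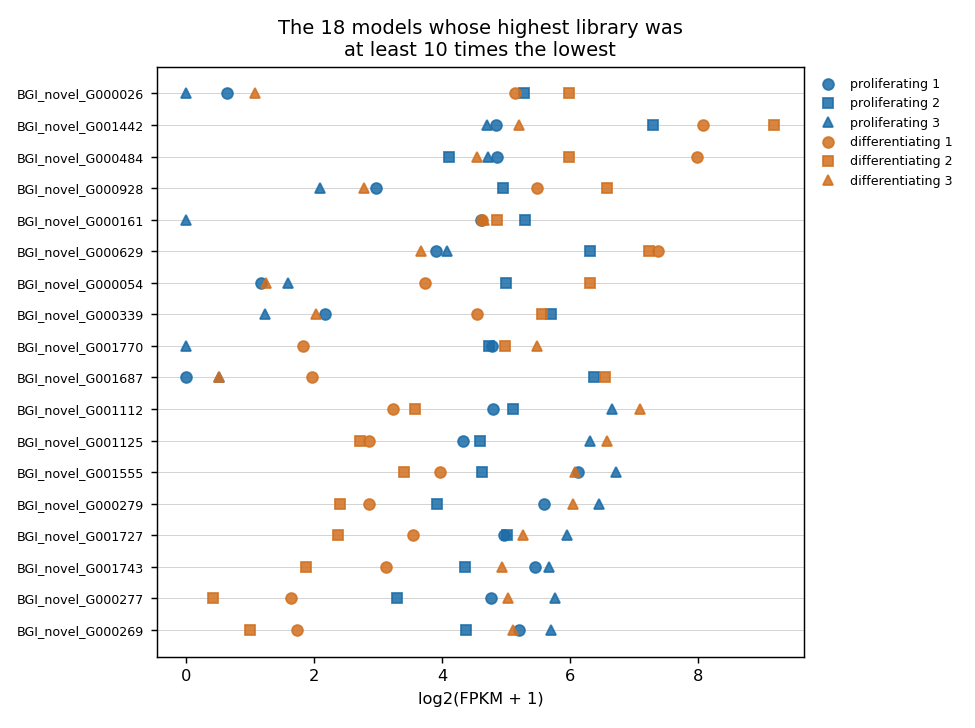
Each row is 1 of the 18 added models whose highest library was at least 10 times the lowest, and each mark is 1 library on the log2(FPKM + 1) scale (blue proliferating, orange differentiating, shape by replicate number). No row has all blue marks on one side of all orange marks. In BGI_novel_G001687 the marks at the right are proliferating 2 and differentiating 2, and in BGI_novel_G000269 the marks at the left are differentiating 1 and 2.

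Many added models nonetheless stayed within 2-fold over the 6 libraries, though a smaller share than of other genes at 20 FPKM or more. In 98 of the 188 (52.1%) the highest library was under 2 times the lowest, and in 43 (22.9%) it was under 1.5 times. The same shares among the 8420 other genes at 20 FPKM or more were 83.4% and 56.9%, and among the 973 added models averaging 1 to 20 FPKM they were 31.9% and 10.1%. The median ratio of highest to lowest was 1.97 for the 188 models and 1.45 for the other genes. The median coefficient of variation within proliferating callus was 20.9% against 12.2%, and within differentiating callus 21.6% against 10.9%. None of these contrasts between classes was tested.

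The steadiest model was BGI_novel_G000938, with 43.0, 41.8 and 39.3 FPKM in proliferating and 38.0, 38.9 and 39.2 FPKM in differentiating callus. Its groups were apart, but by a log2 difference of only -0.09 (SE 0.10; limma adjusted p 0.707). BGI_novel_G001591 had 28.3, 28.3 and 29.0 FPKM in proliferating and 29.2, 25.1 and 28.9 FPKM in differentiating callus. BGI_novel_G000597 had 22.8, 22.3 and 22.3 FPKM against 23.3, 24.7 and 26.1 FPKM. In these 3 models the highest library was 1.13, 1.16 and 1.17 times the lowest.

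The extremes were unevenly spread over the libraries in all 188 models as well. Differentiating 2 held the lowest value of 81 models, 43.1%, where it did so in 25.8% of the other genes at 20 FPKM or more. Proliferating 3 held the highest value of 57 models, 30.3%, beside 23.5% of the other genes. Differentiating 3 held the lowest value of only 9 models, 4.79% beside 13.6%. The part of depth or RNA quality in this spread was not tested, as the files give neither.

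**Figure D5:**
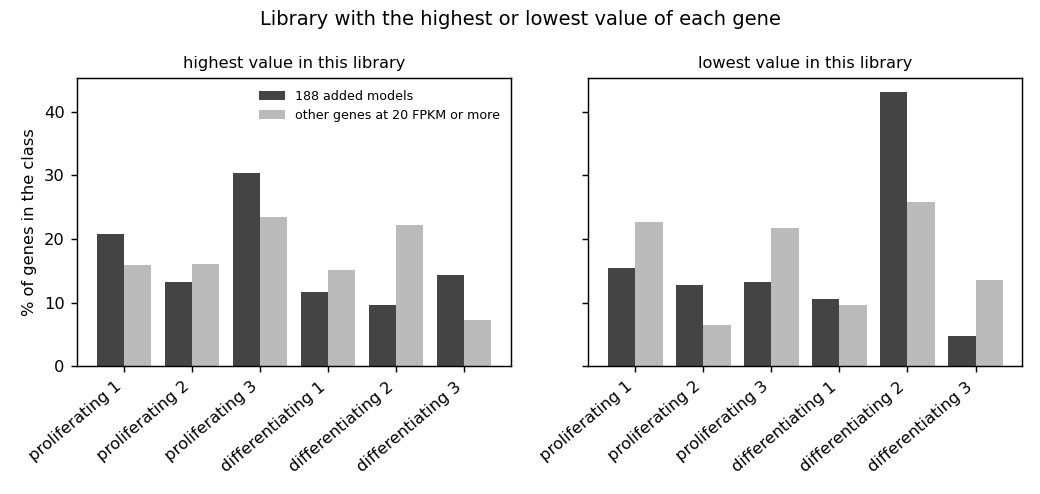
Bars give the percentage of genes whose highest (left) or lowest (right) value of the 6 lay in each library, for the 188 added models (dark) and the 8420 other genes averaging 20 FPKM or more (light). The tallest bar is differentiating 2 on the right, at 43.1% of the added models against 25.8% of the other genes.

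The ID numbers were not used in choosing the models. They run up to 1927, and 40 of the 188 models fell into 18 runs of consecutive numbers. Whether scattered numbers would give as many runs was not tested. Of the 22 pairs of consecutive numbers, 15 had log2 differences of the same sign. As 119 of the 188 models lay below 0, pairs can share a sign whatever their numbers. How many would do so was not computed, and pairs within a longer run share models. What the numbering follows was not given, so neighbouring numbers are not shown to be neighbouring genes. The longest run, BGI_novel_G001539 to BGI_novel_G001543, held 5 models and is described after its values were seen. BGI_novel_G001541 and BGI_novel_G001543 averaged 313 and 307 FPKM, BGI_novel_G001539 and BGI_novel_G001542 147 and 83.1 FPKM, and BGI_novel_G001540 33.0 FPKM. All 5 had their highest value in proliferating 1 or 3, and their lowest in proliferating 2 or differentiating 2. BGI_novel_G001543 had 427, 255 and 466 FPKM in proliferating and 232, 145 and 314 FPKM in differentiating callus, a log2 difference of -0.75 (SE 0.33; limma adjusted p 0.405). BGI_novel_G001541 had 370, 164 and 398 FPKM against 302, 257 and 384 FPKM, a log2 difference of 0.10.

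Another consecutive pair, BGI_novel_G001742 and BGI_novel_G001743, was also chosen after its values were seen. BGI_novel_G001742 had 497, 326 and 844 FPKM in proliferating and 150, 111 and 466 FPKM in differentiating callus, a log2 difference of -1.38 (SE 0.57; limma adjusted p 0.389). BGI_novel_G001743 had 42.5, 19.4 and 49.6 FPKM against 7.69, 2.66 and 29.4 FPKM, a log2 difference of -1.85 (SE 0.74; limma adjusted p 0.382). In both, differentiating 2 was the lowest library, proliferating 3 the highest, and differentiating 3 above proliferating 2. None of the 188 models had the same 6 values as another gene of the table, although 119 tested genes did.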

How the data were processed

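Polyadenylated RNA from callus was read by DNBSEQ sequencing (paired reads of 150 bp, per the labels' protocols) in 3 proliferating and 3 differentiating libraries. The values the authors deposited are FPKM per gene, 1 column per library, per the file headers. Per the submitters' processing notes, the tools were RSEM, DESeq2, Bowtie2 2.2.5 and HISAT2 2.1.0, with no role stated for any. How the added models were made, the annotation and the genome build: not given in the sources used here. FPKM divide by model length, and the lengths used for the added models are not known, which limits how far their levels can be set against those of other genes.

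The 22371 genes averaging 1 FPKM or more were fitted with limma 3.58.1 in R 4.3.3 on log2(FPKM + 1), with group as the only term, a mean-variance trend and two-sided tests. P-values were adjusted over all tested genes, and a call needed an adjusted p below 0.05 together with a log2 difference of 1 or more in size. This scale understates the change of low genes. All 188 models passed the filter. The fit was checked on simulated data. Counts and ratios were computed in Python 3.11.15 with pandas 2.3.3. No count model was fitted, as FPKM are not counts. P-values measure only the spread between these libraries, labelled biological replicates with nothing said of separate cultures.

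The models, the limits and the tests were chosen with earlier results of these data known. Named models are the 3 most abundant, the 2 with the largest difference in each direction, with and without groups apart, every model under 1 FPKM in a library, the 3 with the highest share in 1 library, the 3 steadiest and those next to the limit of 20 FPKM; others are said to be named after their values were seen. The alternatives were other pseudocounts, filters, scalings, limits, the variance model, the replicate number as a block and leaving out each library.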

Additional observations from a re-analysis of the deposited data

How the results depend on the processing

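The count of 0 called models in limma became 3 with the replicate block (all lower), 0 to 5 with 1 library left out (the 5, all lower, without differentiating 3) and 31 (24 lower, 7 higher) without proliferating 2 and differentiating 3. That last fit was chosen after seeing the data and dropped the libraries that stood apart, which narrows the spread by construction, and 5.94% of all tested genes were called in it. No other alternative called a model. Of all tested genes, 0.501% were called with the block and 1.51% without differentiating 3. Models at an unadjusted limma p under 0.05 numbered 63 with the block, 89 without both libraries and 18 to 77 with 1 library left out. The shares of all tested genes in these fits were 17.2%, 24.9% and 5.81% to 20.5%. Models at least 2-fold higher numbered 5 with a pseudocount of 5, 15 without both libraries and 4 to 14 with 1 left out. Those at least 2-fold lower numbered 30 without both and 11 to 27 with 1 left out. Groups were apart in 12 to 27 models above and 17 to 68 below with 1 library left out. The 27 and the 68 came without differentiating 3. Fewer libraries had to be apart in each of these fits, so the counts could only stay or rise. Why they differed between the fits was not tested, and shares of all tested genes were not computed for them. Models with over 50% of their sum in 1 library numbered 6 to 9 with 1 library left out, where fewer libraries share the sum. With the limit for a model at a mean of 10 FPKM (344 models), these counts were 63 at an unadjusted limma p under 0.05, 22 at least 2-fold higher, 21 apart above, 33 apart below, 18 under 1 FPKM in a library and 10 with over 50% in 1 library. At 50 FPKM (64 models) they were 17, 3, 3, 7, 0 and 2, with 9 at least 2-fold lower. With the limit on the median (180 models) 4 were at least 2-fold higher, 3 under 1 FPKM and 2 over 50%. Beyond fewer libraries or models, the cause was not tested. No named log2 difference taken as one of the largest changed sign under its 15 alternatives. Deviations from the group means correlated at -0.0955, 0.572 and 0.45 between libraries of the same number, so whether the numbers pair the libraries was not settled. The 3 models of the replicate block, BGI_novel_G000573, BGI_novel_G001654 and BGI_novel_G001742 (limma adjusted p 0.0396, 0.0418 and 0.0496), are values only. Depth is unknown.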
